A study of Mus musculus with 75 samples.

Results

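Transcripts of 9 genes used as markers of alveolar type 1 (AT1) cells, Ager, Hopx, Pdpn, Rtkn2, Cav1, Cav2, Akap5, Clic5 and Emp2, were followed in the lung of bleomycin (BLEO)-IPF mice. The genes were chosen by name, and each was found once among the 55536 genes of the count table and lay within the 16221 genes that were tested. RNA sequencing was performed on the inferior lobe of the right lung of 75 male C57BL/6JRj mice, with 1 library per mouse. Mice were 12 to 14 weeks old when bleomycin was given, so BLEO mice of later days were older at termination. The day on which the controls were terminated was not given in the sources used here. Control (CTRL) mice (n = 10) were titled saline in the sample labels, while the protocol text described the controls as untreated. BLEO-IPF mice received a single intratracheal dose of bleomycin, a DNA-damaging drug that injures the alveolar epithelium, and were terminated on day 7 (n = 10), day 14 (n = 12), day 21 (n = 12), day 28 (n = 12), day 35 (n = 12) or day 42 (n = 7). Only BLEO mice that had lost 5% to 17% of body weight by day 6 were randomized, so that the model covers mild to moderate responders. The paper also reports mortality among BLEO-IPF mice over the study, so the mice of each day were survivors. Each mouse was sampled once, so rises and falls between days compare different mice. All mice were wild type, and the lobe was taken after the lungs had been lavaged and rinsed. The whole lobe was sequenced, and in such bulk samples fewer AT1 cells and less RNA per AT1 cell cannot be told apart.

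AT1 cells are the thin, flat cells that cover most of the alveolar surface and exchange gas with the capillaries beneath. They are lost early in bleomycin injury, and alveolar type 2 (AT2) cells, the surfactant-producing progenitors, replace them through a transitional keratin-rich state. Ager encodes RAGE, a receptor that AT1 cells carry at unusually high level, Hopx a small homeodomain protein without DNA binding, and Pdpn podoplanin, a membrane glycoprotein. Rtkn2 encodes a scaffold protein, Cav1 and Cav2 the coat proteins of caveolae, Akap5 an anchor for protein kinase A and calcineurin, Clic5 a chloride intracellular channel family protein linked to the cortical cytoskeleton, and Emp2 a tetraspan epithelial membrane protein. None of the genes is restricted to AT1 cells in whole lung. Capillary endothelium is rich in caveolae, and podoplanin is also a marker of lymphatic endothelium, mesothelium and some fibroblasts.

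In GRCm38 coordinates, Cav2 (ENSMUSG00000000058, chr6:17281185-17289115) and Cav1 (ENSMUSG00000007655, chr6:17306335-17341452) were neighbours on the plus strand. Ager (ENSMUSG00000015452, chr17:34597862-34600936, plus strand) and Clic5 (ENSMUSG00000023959, chr17:44188584-44280172, plus strand) shared chromosome 17. Pdpn (ENSMUSG00000028583) lay at chr4:143267431-143299564 on the minus strand, Hopx (ENSMUSG00000059325) at chr5:77086988-77115121 on the minus strand and Rtkn2 (ENSMUSG00000037846) at chr10:67979570-68059740 on the plus strand. Akap5 (ENSMUSG00000021057) lay at chr12:76324891-76334153 on the plus strand and Emp2 (ENSMUSG00000022505) at chr16:10281749-10313968 on the minus strand. An antisense gene shared exon bases with Hopx (Hopxos, 412 bases) and with Rtkn2 (Gm16212, 216 bases). Whether the counting used strand was not given in the sources used here, so part of the Hopx and Rtkn2 counts could come from these antisense genes.

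The sequence just before the transcription start is shown for 4 genes that carry the contrasts below, the neighbours Cav1 and Cav2, whose levels followed each other most closely, Pdpn, which was raised, and Ager, which was not called against CTRL in the fit of all mice. Each stretch was taken from RefSeq promoter windows of GRCm38.p6, ends at the base before the RefSeq start, is written 5′ to 3′ on the strand of the gene and holds no annotated exon base. Capitals mark matches, on either strand, to any of 7 short motifs. These were the TATA box of core promoters, read as TATAAA, and the GC box bound by factors of the Sp family, read as GGGCGG. They also held the CCAAT box, read by its own name, and the site of the stress-responsive factor AP-1, read as TGANTCA. The site of the TEAD factors, the DNA-binding partners of YAP and TAZ, was read as GGAATG. The site of the lung lineage factor NKX2-1 was read as CTCAAG, and the palindromic E-box as CACGTG.
Cav2, chr6:17280935-17281184, plus strand: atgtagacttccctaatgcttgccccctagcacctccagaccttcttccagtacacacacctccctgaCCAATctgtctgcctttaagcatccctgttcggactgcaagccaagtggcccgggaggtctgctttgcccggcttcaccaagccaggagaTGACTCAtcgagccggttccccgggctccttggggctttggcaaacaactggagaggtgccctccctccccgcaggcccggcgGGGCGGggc
Cav1, chr6:17306085-17306334, plus strand: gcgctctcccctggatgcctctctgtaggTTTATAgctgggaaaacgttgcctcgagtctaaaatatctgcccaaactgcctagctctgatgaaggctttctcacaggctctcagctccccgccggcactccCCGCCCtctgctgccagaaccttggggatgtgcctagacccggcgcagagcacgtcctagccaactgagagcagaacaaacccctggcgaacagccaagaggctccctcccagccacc
Pdpn, chr4:143299565-143299814, minus strand: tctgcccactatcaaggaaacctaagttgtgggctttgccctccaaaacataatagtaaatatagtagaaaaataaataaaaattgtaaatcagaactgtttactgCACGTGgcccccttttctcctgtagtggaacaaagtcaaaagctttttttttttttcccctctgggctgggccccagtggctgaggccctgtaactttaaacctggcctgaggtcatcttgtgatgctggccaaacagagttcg
Ager, chr17:34597600-34597849, plus strand: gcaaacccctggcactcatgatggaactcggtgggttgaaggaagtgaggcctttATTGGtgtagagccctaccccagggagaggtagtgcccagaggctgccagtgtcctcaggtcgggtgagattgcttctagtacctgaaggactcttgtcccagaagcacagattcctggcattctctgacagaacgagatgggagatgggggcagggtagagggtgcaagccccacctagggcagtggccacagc

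Among the stretches printed, the AP-1 letters stood only in that of Cav2, and 7.81% of all 32851 RefSeq promoter windows (250 bases before to 50 bases after a start) held them. The E-box letters of Pdpn stood in 7.15% of all windows, the GC box in 35.7%, the CCAAT box in 37.4% and the TATA box in 13.6%. Of the 8 members with a window, the first starts of Cav1, Cav2, Pdpn, Akap5, Clic5 and Emp2 held a GC box, while those of Ager and Hopx did not. The NKX2-1 letters (15.9% of all windows) stood in both windows of Hopx, and the TEAD letters (14.7% of all windows) in no window of a member. Neighbouring GC boxes of Cav2 share bases. These are matches of letters and were not read as binding sites. Rtkn2 had no entry.

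Libraries held 9240291 to 14665247 counts (median 10677163), and values are given as CPM, scaled counts relative to the size of each library, after TMM scaling. Log2 fold changes (log2FC) come from a single edgeR fit over all 75 mice, a call is an adjusted p under 0.05 over the 16221 genes, and all BLEO days were compared with the same 10 CTRL mice. Because the labels give 1 mouse per library, p-values measure the spread between mice. Over 375 pairs of mice from the same group, the chi-square per degree of freedom between libraries was at least 3.881, so that none was counted as a duplicate. The summed CPM of 4 adipocyte markers was 789.9 in mouse 8 of day 7 and 1750 in mouse 10 of day 28, against at most 54.4 in CTRL, and mouse 10 of day 28 also had the highest summed CPM of 4 cardiac muscle markers (1433). Results were therefore also computed without these 2 libraries.

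Per kilobase of annotated exon, Ager was the most abundant member in CTRL mice at 956 RPKM (CPM divided by exon length in kilobases), followed by Cav1 (453 RPKM) and Hopx (442 RPKM). Emp2 (195 RPKM), Clic5 (163 RPKM) and Cav2 (153 RPKM) were intermediate, and Pdpn (85.6 RPKM), Akap5 (68.7 RPKM) and Rtkn2 (42.7 RPKM) were lowest. Across CTRL mice the coefficient of variation was 6.55% for Cav1, 6.87% for Clic5 and 7.30% for Emp2, and between 10.8% and 12.0% for the other members. In BLEO-IPF mice it was highest for Rtkn2 on day 14 (40.7%), followed by Hopx (32.4%), Rtkn2 (32.2%) and Cav1 (30.7%), with the last 3 values from day 28. When the 7 group means of a gene were ordered, 3 of 54 neighbouring means differed by more than the larger SD, namely CTRL above day 42, its nearest group, for Cav1, Cav2 and Clic5.

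**Figure D1:**
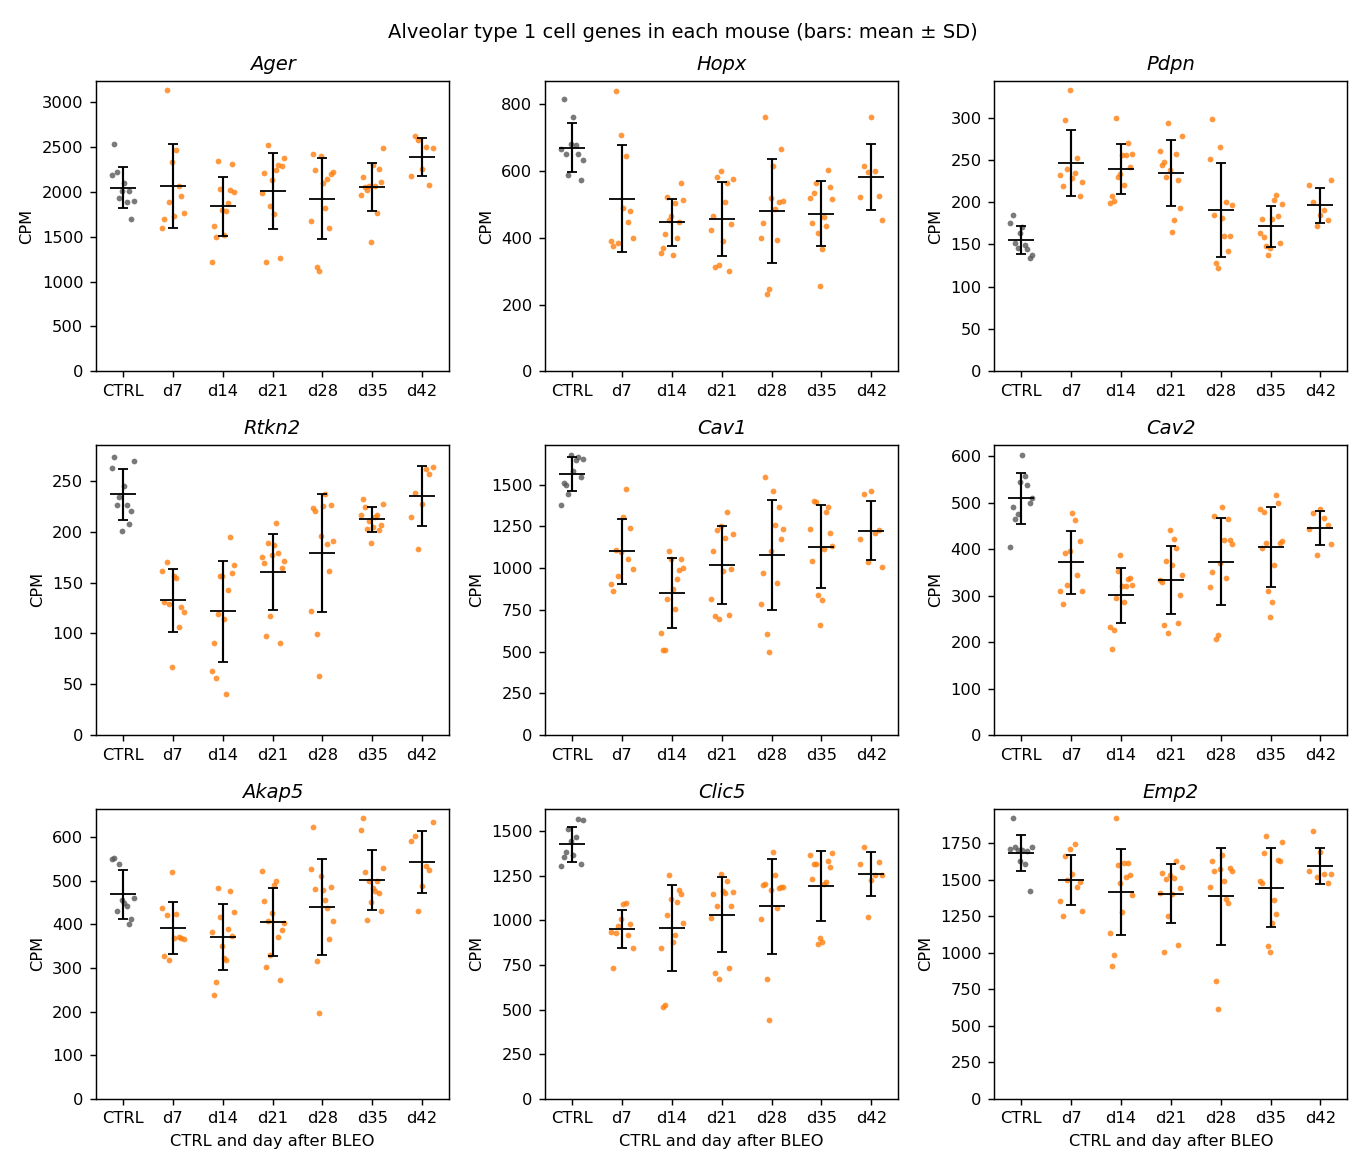
CPM of each member (y axis, linear from 0) in each mouse (points) by group (x axis), with bars for the mean ± SD; CTRL n = 10, days 7 to 42 n = 10, 12, 12, 12, 12 and 7. On day 14 all 12 BLEO-IPF mice sat below all CTRL mice for Hopx, Rtkn2, Cav1, Cav2 and Clic5 and above them for Pdpn, while the groups overlapped for Ager.

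Ager, the receptor gene, did not pass the test against CTRL on any BLEO day in the fit of all 75 mice. Its CPM was 1694 to 2537 (median 2008) in CTRL mice, 1598 to 3134 (median 1918) on day 7, 1223 to 2345 (median 1837) on day 14 and 1217 to 2526 (median 2173) on day 21. It was 1120 to 2421 (median 2124) on day 28, 1442 to 2489 (median 2065) on day 35 and 2075 to 2617 (median 2489) on day 42. CTRL and BLEO-IPF mice overlapped on every day, and on days 7 to 35 at least 1 BLEO-IPF mouse lay below the lowest CTRL mouse. The log2FC was 0.01 ± 0.12 (SE) on day 7, -0.16 ± 0.12 on day 14 (adjusted p = 0.241) and 0.22 ± 0.13 on day 42 (adjusted p = 0.228). Day 42 mice were higher than day 14 mice, with a log2FC of 0.38 ± 0.13 (adjusted p = 0.0179), and 4 of 7 exceeded every day 14 mouse.

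Rtkn2, the scaffold protein gene, had the largest fall of the members. Its CPM was 200.4 to 273.9 (median 230.5) in CTRL mice, 67.4 to 170.5 (median 129.6) on day 7, 40.7 to 195.1 (median 130.8) on day 14 and 90.8 to 208.6 (median 173.5) on day 21. No mouse of day 7 or day 14 reached the lowest CTRL mouse, and on day 21 a single mouse of 12 did. It was 57.6 to 237.5 (median 193.2) on day 28, 189.4 to 232.0 (median 212.2) on day 35 and 183.4 to 263.3 (median 238.4) on day 42. The log2FC was -0.84 ± 0.18 on day 7 (adjusted p = 0.000104), -0.96 ± 0.17 on day 14 (adjusted p = 1.94e-06) and -0.56 ± 0.17 on day 21 (adjusted p = 0.00437). On day 28 it was -0.40 ± 0.17 and close to the threshold (adjusted p = 0.0488; 0.067 without the adipocyte-rich libraries). On day 42 it was -0.01 ± 0.20, and the rise from day 14 to day 42 was 0.95 ± 0.19 (adjusted p = 6.45e-05, 6 of 7 mice above every day 14 mouse).

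The caveolin genes fell together, and Cav1 stayed below CTRL through day 35. Cav1 CPM was 1379 to 1680 (median 1566) in CTRL mice, 865.5 to 1477 (median 1075) on day 7, 512.2 to 1103 (median 904.8) on day 14 and 693.7 to 1336 (median 1050) on day 21. All 12 mice of day 14 and all 12 of day 21 lay under the lowest CTRL mouse. It was 499.7 to 1548 (median 1140) on day 28, 656.5 to 1401 (median 1172) on day 35 and 1009 to 1463 (median 1213) on day 42. The Cav1 log2FC was -0.51 ± 0.15 on day 7 (adjusted p = 0.00375), -0.87 ± 0.14 on day 14 (adjusted p = 2.24e-07), -0.62 ± 0.14 at day 21, -0.54 ± 0.14 at day 28 and -0.47 ± 0.14 at day 35 (adjusted p = 0.00777). On day 42 it was -0.35 ± 0.16 (adjusted p = 0.106), with 5 of 7 mice below every CTRL mouse. Cav2 CPM was 404.6 to 603.5 (median 505.2) in CTRL mice, 184.6 to 388.0 (median 321.4) on day 14 and 387.0 to 487.1 (median 451.0) on day 42. The Cav2 log2FC was -0.76 ± 0.12 on day 14 (adjusted p = 2.89e-07), -0.33 ± 0.12 on day 35 (adjusted p = 0.0329) and -0.19 ± 0.14 on day 42 (adjusted p = 0.347). From day 14 to day 42, Cav1 rose by 0.52 ± 0.15 (adjusted p = 0.00637) and Cav2 by 0.57 ± 0.14 (adjusted p = 0.000799) on the log2 scale.

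Clic5, which encodes the cytoskeleton-linked chloride intracellular channel protein, had fallen on day 7 as far as on day 14. Its CPM was 1304 to 1570 (median 1413) in CTRL mice, 732.9 to 1097 (median 951.3) on day 7, 514.5 to 1256 (median 1008) on day 14 and 673.6 to 1260 (median 1116) on day 21. Every mouse of these days lay below every CTRL mouse. It was 439.7 to 1381 (median 1182) on day 28, 866.3 to 1377 (median 1266) on day 35 and 1019 to 1413 (median 1256) on day 42. The log2FC was -0.59 ± 0.13 on day 7 (adjusted p = 0.000191), -0.58 ± 0.13 on day 14 (adjusted p = 5.94e-05), -0.47 ± 0.13 on day 21 and -0.40 ± 0.13 on day 28 (adjusted p = 0.00654). It did not pass the test on day 35 (-0.26 ± 0.13, adjusted p = 0.108) or day 42 (-0.18 ± 0.15, adjusted p = 0.377).

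Hopx, the homeodomain protein gene, was lower from day 7 to day 35. Its CPM was 573.1 to 816.7 (median 659.1) in CTRL mice, 376.5 to 839.5 (median 464.8) on day 7, 350.0 to 564.4 (median 450.3) on day 14 and 452.4 to 760.7 (median 598.1) on day 42. The day 7 mice spanned the CTRL range, whereas on day 14 no mouse reached it. The log2FC was -0.38 ± 0.15 on day 7 (adjusted p = 0.0355; 0.0633 without the adipocyte-rich libraries), -0.59 ± 0.14 on day 14 (adjusted p = 0.000336), -0.55 ± 0.14 at day 21, -0.48 ± 0.14 at day 28 and -0.50 ± 0.14 at day 35 (adjusted p = 0.00486). On day 42 it was -0.20 ± 0.17 (adjusted p = 0.395), and its rise from day 14 to day 42 of 0.38 ± 0.16 missed the threshold (adjusted p = 0.0529).

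Akap5 and Emp2, the kinase anchor and the tetraspan protein, had the smallest falls against CTRL on day 14 among the genes that were called lower. Akap5 CPM was 400.6 to 550.7 (median 452.3) in CTRL mice, 237.0 to 482.3 (median 377.7) on day 14 and 430.9 to 634.3 (median 533.9) on day 42. Akap5 passed the test only on day 14 (log2FC -0.34 ± 0.11, adjusted p = 0.00791), and it rose from day 14 to day 42 by 0.55 ± 0.13 (adjusted p = 0.000424). Emp2 CPM was 1425 to 1919 (median 1703) in CTRL mice, 908.8 to 1921 (median 1498) on day 14, 616.9 to 1667 (median 1525) on day 28 and 1480 to 1829 (median 1539) on day 42. The Emp2 log2FC was -0.25 ± 0.11 on day 14 (adjusted p = 0.0461; 0.0513 without the adipocyte-rich libraries), -0.26 ± 0.11 on day 21 (adjusted p = 0.0432) and -0.28 ± 0.11 on day 28 (adjusted p = 0.037). Its groups overlapped on every day, and its log2FC from day 14 to day 42 was 0.17 ± 0.12 (adjusted p = 0.288).

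Pdpn, the podoplanin gene, was the only member called higher than CTRL in the fit of all 75 mice. Its CPM was 134.3 to 184.3 (median 150.4) in CTRL mice, 206.8 to 332.6 (median 233.3) on day 7, 199.0 to 299.0 (median 237.2) on day 14 and 165.1 to 293.9 (median 240.7) on day 21. All mice of days 7 and 14 exceeded every CTRL mouse. It was 122.0 to 297.8 (median 183.3) on day 28, 137.0 to 207.9 (median 171.7) on day 35 and 171.6 to 225.8 (median 190.5) on day 42. The log2FC was 0.67 ± 0.11 on day 7 (adjusted p = 7.78e-07), 0.62 ± 0.10 on day 14 (adjusted p = 5.54e-07), 0.59 ± 0.10 on day 21, 0.29 ± 0.10 on day 28 (adjusted p = 0.0175; 0.0707 when only these 2 groups were fitted), 0.14 ± 0.10 on day 35 (adjusted p = 0.321) and 0.33 ± 0.12 on day 42 (adjusted p = 0.0308; 0.0556 without the filter on low counts). Day 42 was lower than day 14 by a log2FC of -0.29 ± 0.12 (adjusted p = 0.0469), a call that was lost with DESeq2 (adjusted p = 0.0535).

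**Figure D2:**
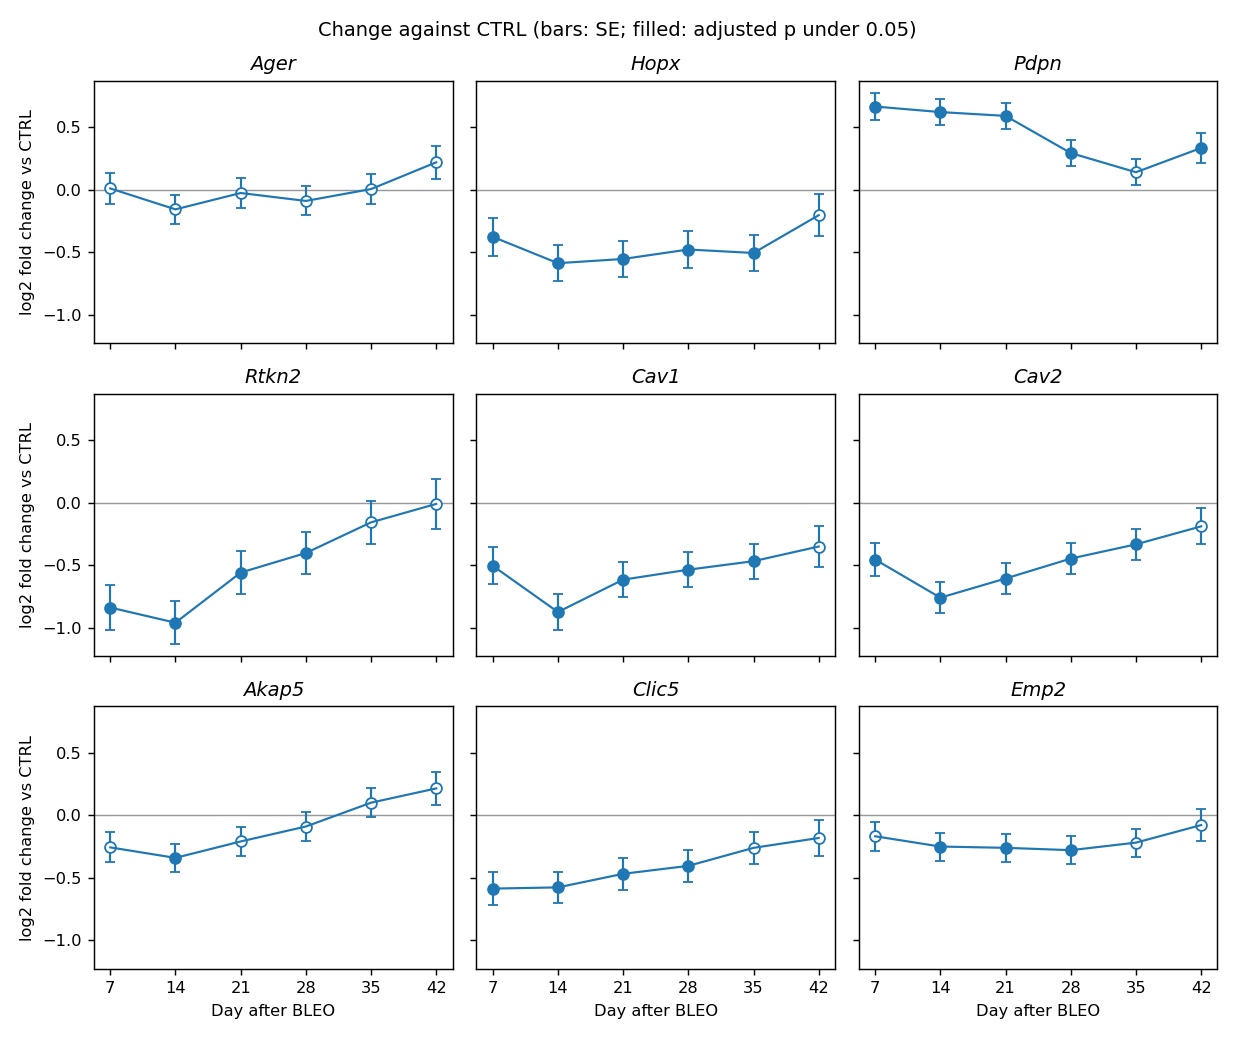
Log2FC against CTRL (y axis) by day after BLEO (x axis) for each member, with bars for the SE and filled points for adjusted p under 0.05. Rtkn2 ran from -0.96 on day 14 to -0.01 on day 42, Pdpn from 0.67 on day 7 to 0.33 on day 42, and all points of Ager were open.

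Counted over the 9 members, 5 were lower and 1 higher on day 7, when 21.0% of all tested genes were lower and 24.8% higher. On day 14, 7 were lower and 1 higher, against 29.9% and 32.4% of all genes, and on day 21 6 were lower and 1 higher, against 25.8% and 28.3%. On day 28, 6 were lower and 1 higher, against 19.2% and 24.1%, and on day 35 3 were lower and none higher, against 13.1% and 16.9%. On day 42 none was lower and 1 higher, against 11.0% and 13.7%. At an unadjusted p under 0.05, 1 member was lower on day 42 and 0 were higher on day 35, and DESeq2 called 0 in both cases. At that limit, 6005 of all 16221 tested genes differed in either direction on day 42 and 6501 on day 35. The median log2FC of the members was -0.38 on day 7 and reached -0.58 on day 14, followed by -0.47 at 21 days, -0.40 at 28 days, -0.22 at 35 days and -0.08 at 42 days, while the median over all genes stayed between -0.0024 and 0.018. Without the adipocyte-rich libraries the counts of lower members were 4 on day 7, 6 each on day 14 and at 21 days, 5 at 28 days, 3 at 35 days and 0 at 42 days. Of the 16199 genes tested there, 3140 were lower on day 7, 4839 on day 14 and 4153 on day 21. At 28, 35 and 42 days the numbers were 3187, 2110 and 1815.

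All day 7 mice lay below all CTRL mice for 2 members, Rtkn2 and Clic5, and above them for Pdpn, against 3.80% and 7.39% of all tested genes. On day 14 the same held for 5 members below and 1 above, against 6.15% and 9.46%. The day 42 result depended on the fit. When only day 42 and CTRL mice were fitted, 3 members were lower, Cav1 (log2FC -0.34, adjusted p = 0.00112), Cav2 (-0.18, adjusted p = 0.0404) and Clic5 (-0.18, adjusted p = 0.0332), and Ager (0.23, adjusted p = 0.0213), Akap5 (0.22, adjusted p = 0.0353) and Pdpn (0.34, adjusted p = 0.00058) were higher. Calls over all genes were also more frequent in that fit, with 2870 lower and 3127 higher of 15066 tested genes.

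Between consecutive days no member was called in edgeR or in DESeq2. The calls over all genes were 17.0% from day 7 to day 14, 1.03% from day 14 to day 21, 0.727% from day 21 to day 28, 1.27% from day 28 to day 35 and 0% from day 35 to day 42. At an unadjusted p under 0.05, 2 members differed from day 7 to day 14 (Cav1 and Cav2), 1 from day 14 to day 21 (Rtkn2), 1 from day 21 to day 28 (Pdpn) and 0 at the later steps. At that limit, 4875 of all 16221 tested genes differed from day 7 to day 14 and 2769 from day 14 to day 21. The numbers were 1967 from day 21 to day 28 and 2067 from day 28 to day 35. From day 35 to day 42, 957 genes passed an unadjusted p under 0.05 and 0 were called by DESeq2. Over the longer span from day 14 to day 42, 6 members were higher (Ager, Rtkn2, Cav1, Cav2, Akap5 and Clic5) and Pdpn was lower, against 15.2% of all genes higher and 18.8% lower.

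Because Ager did not pass the test on any day in the fit of all mice, the log2 ratio of each other member to Ager was compared with CTRL mouse by mouse, in 48 tests adjusted together. The number of members whose ratio differed was 8 of 8 on day 7, 6 at 14 days, 7 each at 21 and 28 days, 5 at 35 days and 6 at 42 days. Hopx relative to Ager was lower on every day, with log2 differences of -0.41 ± 0.07 (SE) on day 7, -0.42 ± 0.05 at 14 days, -0.53 ± 0.08 at 35 days and -0.43 ± 0.10 at 42 days (adjusted p = 0.00138, exact permutation test, 6 of 7 mice below every CTRL mouse). Cav1 relative to Ager was still lower by -0.58 ± 0.12 on day 42 (adjusted p = 0.00101, exact permutation test, 6 of 7 mice), and Cav2 (-0.41 ± 0.11) and Clic5 (-0.41 ± 0.11) by a similar amount. Emp2 relative to Ager was lower by -0.30 ± 0.06 on day 42 in 7 of 7 mice (adjusted p = 0.000353, exact permutation test), while the log2FC of the Emp2 level itself was -0.08 and that of Ager 0.22 on that day. A ratio holds the change of both genes, and Ager was called higher on day 42 when only day 42 and CTRL mice were fitted, so that the lower ratios of day 42 do not show a fall of the other member. Rtkn2 relative to Ager rose from -0.92 ± 0.18 on day 14 to -0.24 ± 0.11 on day 42, relative to its CTRL value, when the log2FC of Rtkn2 itself was -0.01. Pdpn relative to Ager was higher on days 7 to 28 and missed the threshold on day 35 (0.13 ± 0.07, adjusted p = 0.111, permutation test) and day 42 (0.11 ± 0.08, adjusted p = 0.148, exact permutation test).

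**Figure D3:**
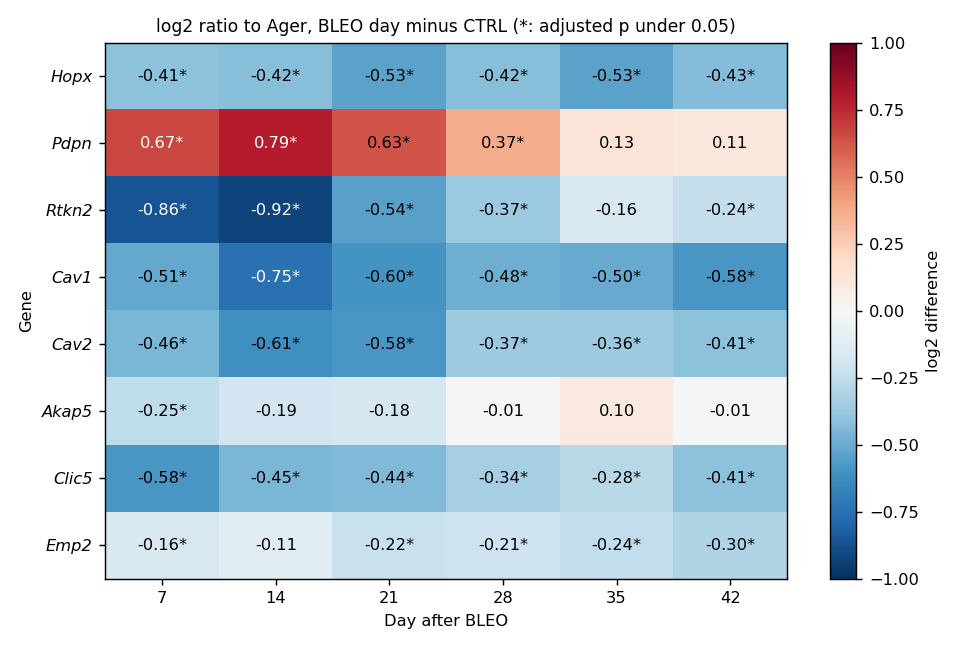
Difference between each BLEO day (columns) and CTRL in the mean log2 ratio of a member (rows) to Ager, with asterisks for an adjusted p under 0.05 over 48 permutation tests. Pdpn was positive on every day (0.79 on day 14), Hopx, Rtkn2, Cav1, Cav2, Clic5 and Emp2 were negative on every day, and Akap5 changed sign.

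Members varied together between mice when the groups were pooled, but not in every single group. Of 36 pairs, 33 were correlated over 75 mice after each mouse was expressed as a deviation from its group mean (permutation within groups, adjusted over 36) by Pearson r, and 30 also by Spearman rho. In CTRL mice alone, some of these pairs had a negative r, as Cav1 with Akap5 (-0.685), Rtkn2 with Cav1 (-0.464) and Ager with Cav1 (-0.360). Others were positive there, as Ager with Emp2 (0.869). On day 42, r was -0.561 for Hopx with Akap5. Cav1 and Cav2 followed each other most closely (Pearson r = 0.937, Spearman rho = 0.916, adjusted p = 1.64e-05 and 1.89e-05 by permutation, the smallest values reached), with r between 0.812 and 0.978 in the 7 groups and 0.926 without the 2 mice farthest from the median. Clic5 with Emp2 (r = 0.888, rho = 0.775) and Cav1 with Clic5 (r = 0.884, rho = 0.830) came next, although Clic5 with Emp2 reached only 0.140 in CTRL mice. Ager was closest to Emp2 (r = 0.784, rho = 0.743; 0.368 to 0.948 within groups) and Hopx (r = 0.783, rho = 0.701; 0.0678 to 0.915 within groups). For these 4 other pairs the adjusted p was the same, 1.64e-05 for r and 1.89e-05 for rho by permutation, and r was 0.835, 0.856, 0.740 and 0.752 without the 2 farthest mice. The 3 pairs that did not pass by r or rho were Pdpn with Rtkn2 (r = 0.241, adjusted p = 0.0874 by permutation), Pdpn with Cav1 (r = 0.184, adjusted p = 0.211 by permutation) and Pdpn with Cav2 (r = 0.185, adjusted p = 0.200 by permutation). Hopx with Pdpn, Pdpn with Clic5 and Cav1 with Akap5 passed by r but not by rho (adjusted p of rho = 0.101, 0.235 and 0.0684 by permutation).

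**Figure D4:**
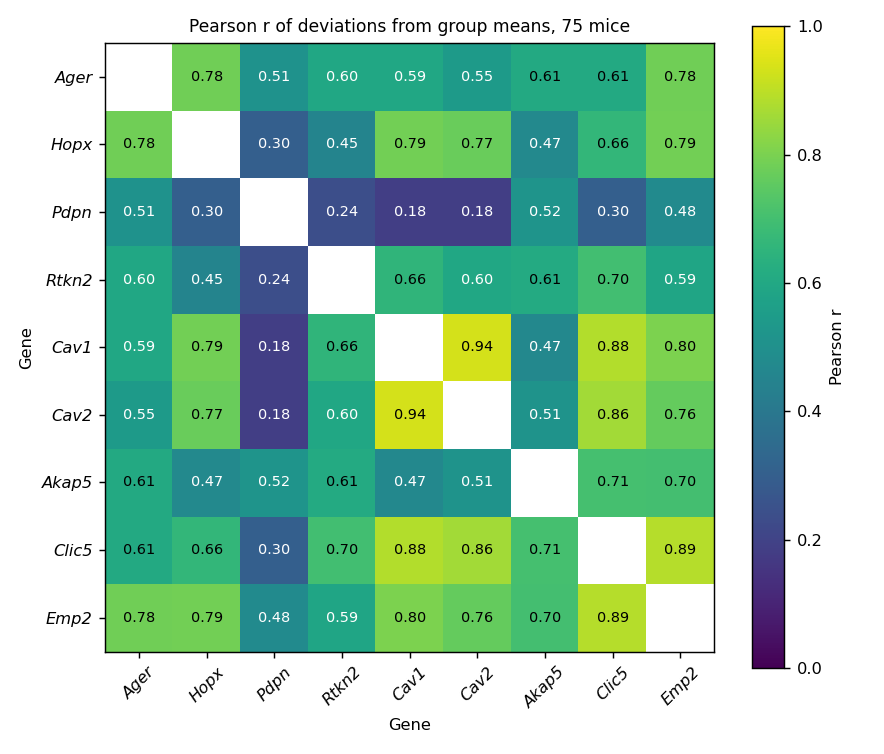
Pearson r between members over 75 mice, each mouse taken as its deviation in log2 CPM from its group mean; both axes list the members. The highest value is 0.94 for Cav1 with Cav2, and the row of Pdpn holds the lowest values, down to 0.18.

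The mice at the low end were largely the same for the members other than Pdpn. Mice 4 and 5 of day 28 were among the lowest 2 of their day for all 8 of these genes, and mice 3 and 10 of day 21 and mouse 6 of day 35 were among the lowest 3 of theirs for all 8. Pdpn was not part of this ranking, but mice 5 and 4 of day 28 also had its lowest values of that day (122.0 and 127.6 CPM). In mouse 6 of day 35 Pdpn was 145.4 CPM, against a day median of 171.7. In mice 3 and 10 of day 21 it was 247.0 and 226.0 CPM, against a day median of 240.7. In mouse 5 of day 28 Ager was 1120 CPM, Cav1 499.7 CPM and Rtkn2 57.6 CPM. Its Col1a1, the main fibrillar collagen gene, lay 1.73 log2 units above the mean of its day, and that of mouse 4 of day 28, mouse 10 of day 21 and mouse 6 of day 35 lay 1.28, 1.68 and 1.47 above, and that of mouse 3 of day 21 lay 1.03 above. Mouse 1 of day 28, with Col1a1 at 1.44 above, was never among the lowest 2 of its day, but it was among the lowest 3 for 4 of the 8 genes. Its Rtkn2 and Cav1 lay at -0.45 and -0.38 from the day mean, while its Akap5 and Emp2 lay 0.31 and 0.12 above it. These 6 mice were singled out after their values had been seen.

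Within BLEO days, Ager was related to 4 of 5 genes of other cell types over 65 mice (permutation within days, adjusted over 5 relations). Ager was lower where Col1a1 was higher (r = -0.613, rho = -0.480, adjusted p = 2.5e-05 and 0.000437 by permutation), with r between -0.769 and -0.0536 in the 6 days and -0.547 without the 2 mice farthest from the median of Ager. It was higher with Sftpc, a surfactant protein gene of AT2 cells (r = 0.762, rho = 0.721, adjusted p = 1.67e-05 and 2.5e-05 by permutation; r = 0.529 to 0.900 within days), and with Pecam1, a pan-endothelial gene (r = 0.616, rho = 0.533, adjusted p = 1.67e-05 and 5e-05 by permutation; r = 0.0625 to 0.804 within days). It was lower with Ptprc, the leukocyte gene CD45 (r = -0.530, rho = -0.555, adjusted p = 1.67e-05 and 2.5e-05 by permutation; r = -0.822 to 0.0591 within days). Leaving out the 2 mice farthest from the median of Ager gave r = 0.727 for Sftpc, 0.555 for Pecam1 and -0.559 for Ptprc. With Krt8, a keratin of the transitional state, r was 0.235 and did not pass while rho was 0.271 and did (adjusted p = 0.102 and 0.0422 by permutation). CPM values of a library sum to a fixed total, so part of an inverse relation between abundant genes can be set by the scale.

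The same relation to Col1a1 was computed for all 9 members, in a family of 45 relations that was chosen after the relation of Ager had been seen. Cav1 was the closest (r = -0.883, rho = -0.881, r between -0.948 and -0.859 in the 6 days), followed by Cav2 (r = -0.875, rho = -0.894; -0.924 to -0.799). Hopx (r = -0.763, rho = -0.742) and Clic5 (r = -0.763, rho = -0.773) were related to Col1a1 with the same sign in all 6 days, as was Emp2 (r = -0.667, rho = -0.578). The adjusted p of these 5 relations was 2.25e-05 for r and 2.14e-05 for rho by permutation, the smallest values reached, and r without the 2 mice farthest from the median was -0.862 for Cav1, -0.856 for Cav2, -0.721 for Hopx, -0.762 for Clic5 and -0.594 for Emp2. For Rtkn2 the sign held in 4 of 6 days (r = -0.631, rho = -0.598, with the same adjusted p, r = -0.617 without the 2 farthest mice) and for Akap5 in 5 of 6 (r = -0.418, rho = -0.271, r = -0.308 without them), where the adjusted p was 0.00437 for r and 0.0559 for rho by permutation. No relation of Pdpn to Col1a1 was detected (r = 0.00385, rho = 0.0361, adjusted p = 0.981 and 0.811 by permutation), but Pdpn was related to Krt8 (r = 0.458, rho = 0.343, adjusted p = 0.0017 and 0.0147 by permutation, r = 0.436 without the 2 farthest mice). For Pdpn with Krt8, r within days ranged from -0.191 to 0.628. For Pdpn with Col1a1 it ranged from -0.420 on day 35 to 0.465 on day 21 and was positive in 3 of 6 days.

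**Figure D5:**
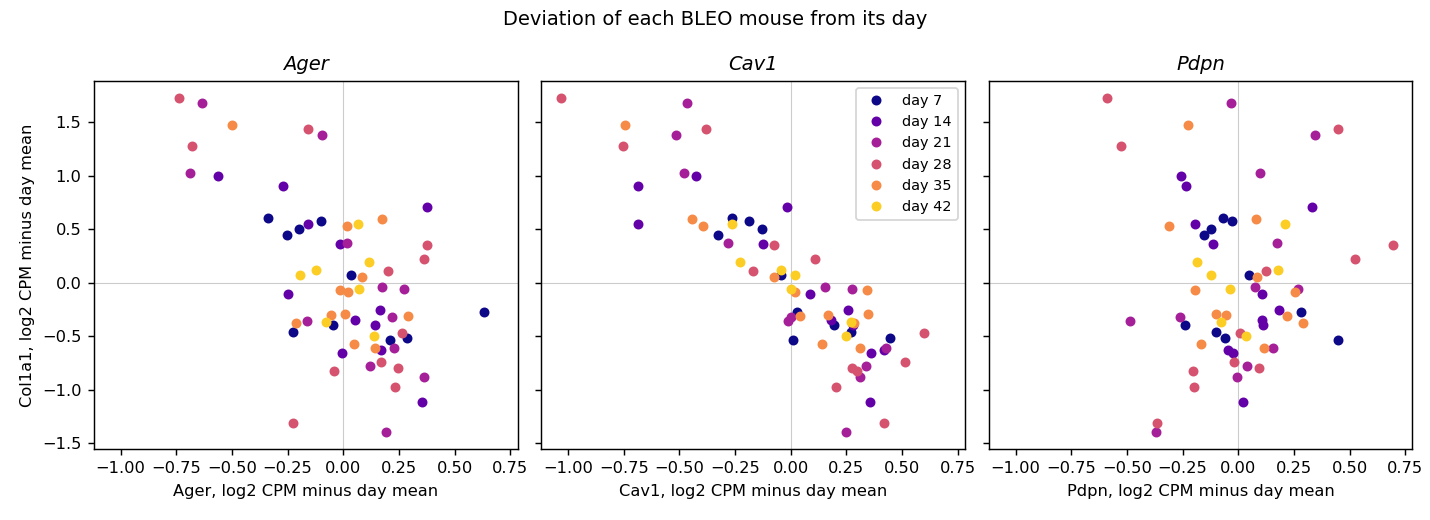
Deviation of Col1a1 from the day mean (y axis, log2 CPM) against that of Ager, Cav1 and Pdpn (x axes, log2 CPM) in 65 BLEO-IPF mice, colored by day. Cav1 falls along a line (r = -0.883), Ager scatters more widely (r = -0.613) and Pdpn shows no slope over the pooled days (r = 0.00385).

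For each member the 3 genes with the most similar level over the 75 mice were identified. Ager was nearest to Clic3 (r = 0.901), Crip2 (r = 0.878) and Aqp5 (r = 0.837), the last an AT1 water channel. Cav1 was nearest to Cavin2 (r = 0.947), which encodes another caveolar coat protein, Tspan2 (r = 0.934) and Fgf1 (r = 0.925). Cav2 was nearest to Tspan2 (r = 0.959), Rnf141 (r = 0.931) and Cavin2 (r = 0.916). Clic5 was close to Megf9 (r = 0.933) and Nectin3 (r = 0.932), and Emp2 was nearest to Slco3a1 (r = 0.905), Pmp22 (r = 0.892), a paralog of Emp2, and Ctnna1 (r = 0.892). Rtkn2 was nearest to Aplp2 (r = 0.907), Dpp4 (r = 0.895) and Rnf43 (r = 0.893), and Hopx to Tspan7 (r = 0.896), Grap (r = 0.873) and 2210011C24Rik (r = 0.870). Akap5 had the weakest neighbours, Patj (r = 0.797), Cldn18 (r = 0.795) and Bend7 (r = 0.793). Pdpn was nearest to Icam1 (r = 0.896), an adhesion molecule, Hbegf (r = 0.885), an EGF family ligand, and Cystm1 (r = 0.871). As deviations from group means the 27 correlations were 0.719 to 0.938, the lowest for Akap5 with Bend7 and the highest for Cav2 with Tspan2. They are descriptions over mice that share groups, with no test.

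Of a further 22 genes used as AT1 markers, 6 were lower and 10 higher on day 14, with a median log2FC of -0.01, beside 29.9% lower and 32.4% higher of all tested genes and a median of 0.0079. On day 42, 3 were lower and 6 higher, beside 11.0% and 13.7% of all genes. Sec14l3, the most abundant in CTRL, was lower on day 14 (log2FC -1.02 ± 0.16, adjusted p = 6.03e-08) and day 42 (-0.46 ± 0.18, adjusted p = 0.0497). Limch1 (-0.42) and Vegfa (-0.54), the vascular growth factor, were lower on day 14. Cldn18, a tight junction gene, had a log2FC of -0.18 ± 0.10 on day 14 (adjusted p = 0.123) and was higher on day 42 (0.51 ± 0.12, adjusted p = 0.000855). Of 6 regulators, 3 were lower and 1 higher on day 14, with a median log2FC of -0.17, which was -0.05 on day 42. Nkx2-1, the lung lineage factor, was lower on day 14 (-0.58 ± 0.12, adjusted p = 1.96e-05) and rose to day 42 by 0.82 ± 0.13, Yap1 was lower on day 14 (-0.20), Wwtr1 (TAZ) was higher (0.17) and Tead1 had a log2FC of -0.10.

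Lists of genes that act with the members were short, and their counts on day 14 stand beside the 29.9% lower and 32.4% higher of all genes. Of 6 other caveola genes, 2 were lower and 2 higher on day 14, and 1 was higher on day 42. The coat genes Cavin2 (-0.96 ± 0.19, adjusted p = 8.53e-06) and Cavin1 (-0.40 ± 0.08, adjusted p = 1.32e-05) were lower on day 14 and rose to day 42 by 0.67 ± 0.20 and 0.31 ± 0.09, whereas Ehd2 (-0.05) and Pacsin2 (0.09) did not pass on day 14. Of 7 RAGE ligands, 1 was lower and 5 higher on day 14, while Ager itself was not called. S100a6 (1.04) and S100a11 (0.84) were higher, Hmgb1 was lower (-0.10) and S100a9 had a log2FC of 0.57. Of 9 partners of AKAP5, podoplanin and CLIC5, 4 were lower and 1 higher on day 14. Rdx (-0.34) and Ppp3ca (-0.29), which encode radixin and a calcineurin subunit, were lower, and Msn (0.07) and Ezr (-0.10) did not pass. Of 8 paralogs of members, 3 were lower and 3 higher on day 14. Clic4 was lower (-0.20), Emp1 (1.01) and Clic1 (0.65) were higher, opposite to Emp2 and Clic5, and Pmp22 had a log2FC of -0.16.

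Markers of other lung cells followed their own courses, and their counts stand beside the shares over all genes given above for each day. AT2 markers were called lower in 6 of 10 on day 14, with Sftpc at -0.88, Sftpa1 at -1.19, Sftpb at -0.59 and Slc34a2 at -0.91. On day 7, 1 was lower and 3 were higher, and from day 21 to day 42 none was lower and 3 or 4 were higher. All 10 rose from day 14 to day 42. Transitional epithelial markers were higher in 7 of 8 on day 14 and on day 42, including Krt8 (0.60) and Krt18 (0.60) on day 14, while Krt19 had a log2FC of 0.12. Pan-epithelial markers were lower in 3 of 7 on day 14 and in 0 on every other day, by edgeR. They were higher in 1 of 7 on day 7, 3 on day 35 and 1 on day 42. Pan-endothelial markers were lower in 9 of 10 on day 14 and in 5 on day 42, with Cdh5 at -0.47, Pecam1 at -0.49 and Tek at -0.87 on day 14. The summed CPM of the pan-endothelial markers was 3826 to 5066 in CTRL mice, 2673 to 3469 on day 7, 2122 to 3766 on day 14 and 3071 to 4558 on day 42. Markers of aerocytes, the capillary cells that face AT1 cells, were lower in 6 of 6 on day 14 and in 4 on day 42 (Kdr -0.97, Ednrb -1.30 and Car4 -0.83 on day 14), and general capillary markers in 3 of 5 and 2 of 5. Within BLEO days, in the same 45 relations, all members but Pdpn were higher with Pecam1 by both r and rho. Over the 65 mice this held most closely for Cav1 (r = 0.840, rho = 0.816), Clic5 (r = 0.811, rho = 0.762), Emp2 (r = 0.808, rho = 0.754) and Cav2 (r = 0.756, rho = 0.728), each with an adjusted p of 2.25e-05 for r and 2.14e-05 for rho by permutation. Without the 2 mice farthest from the median, r was 0.811, 0.750, 0.761 and 0.725, and the lowest r within a day was 0.272, 0.418, 0.720 and 0.387. For Ager and Hopx the sign of r with Pecam1 held in all 6 days. It held in 5 of 6 days for Rtkn2 (r = -0.474 on day 7) and Akap5 (r = -0.218 on day 35). The part of endothelial cells in the fall of Cav1, Cav2 and the other members was not tested further.

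Markers of cells that can carry Pdpn are given beside its rise. The 5 tested lymphatic endothelial markers had a median log2FC of 0.04 on day 7, when Pdpn was already 0.67 higher, and 3 of them were higher on day 14 and on day 42, when Lyve1 was lower (-1.14). Their summed CPM was 489.1 to 683.8 in CTRL mice, 338.6 to 1521 on day 7, 364.4 to 1191 on day 14 and 292.1 to 481.1 on day 42, when all mice lay below CTRL. Mesothelial markers were higher in 1 of 5 on days 7 and 14, with summed CPM of 98.0 to 260.0 in CTRL mice, 181.1 to 336.0 on day 7 and 196.4 to 497.3 on day 14. Fibroblast markers were higher in 3 of 7 on day 7, 5 of 7 on day 14 and 1 of 7 on day 42, with 1 lower each time, and their summed CPM was 1954 to 2746 in CTRL mice and 3966 to 6889 on day 7. Smooth muscle markers were lower in 2 and higher in 3 of 5 on day 14, and leukocyte markers were higher in 6 of 8 on both days 14 and 42. No marker gene of these lists was at 0 in a whole group. Adipocyte markers were lower in 2 of 4 on day 14 and called higher in 3 of 4 on day 28, and cardiac muscle markers were called higher in 4 of 4 on day 28, where mouse 10 had the highest sum of both lists. The median adipocyte sum of day 28 was 5.52 CPM, against 29.9 CPM in CTRL mice. The part of these cells in the change of Pdpn was not tested.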

How the data were processed

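One library per mouse was sequenced from 75 mice. The authors made stranded single-end libraries, aligned reads with STAR 2.7.0f to GRCm38 (Ensembl 96 annotation, per the labels and methods) and deposited raw counts per gene. The counting program was not given in the sources used here. All 75 columns were matched to mice by sample name.

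In edgeR 4.0.16 (R 4.3.3), genes passing filterByExpr (16221 of 55536) were fitted with 1 mean per group and TMM factors, and quasi-likelihood tests were adjusted by Benjamini-Hochberg over all tested genes (threshold 0.05). Log2 CPM used a prior count of 2. Ratios and relations were tested two-sided in scipy 1.17.1 and numpy 2.4.6 with 100000 permutations, exact for day 42. RPKM divided CPM by the length of merged exons. The steps were tested on simulated data. DESeq2 1.42.0, other scalings, no filter, 2-group fits, a replicate block, a fold threshold of 0.5 (log2) and a prior count of 0.5 were alternatives. Leaving out 2 libraries, whose adipocyte marker sum exceeded 10 times the highest CTRL value, and the 45 relations were chosen after seeing the data.

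Members and gene lists were chosen with earlier results of these data known. From each list, up to 4 genes with the highest mean log2 CPM in CTRL mice were eligible to be named, and for each member the 3 nearest genes, of which 1 near Clic5 is not reported here. Depth limits precision to counting error at 9240291 to 14665247 counts per mouse, besides the spread between mice.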

Additional observations from a re-analysis of the deposited data

Results flagged for a closer look

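The change against CTRL differed between day 14 and day 42 for 7 members, by the edgeR test of day 42 minus day 14, in which the shared CTRL mice cancel. The log2 difference was 0.38 for Ager, 0.95 for Rtkn2, 0.52 for Cav1, 0.57 for Cav2, 0.55 for Akap5 and 0.39 for Clic5, and -0.29 for Pdpn. In 27 sets of values (9 members in CTRL, day 7 and day 42 mice) no mouse lay apart from the others by Dixon's criterion, where chance alone gives about 1 in 20. Groups of 12 mice were not examined in this way.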

How the results depend on the processing

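Of 441 alternative log2FC of the members, 406 kept their direction and side of the threshold, 19 lost and 13 gained a call, and 3 turned sign close to 0, namely Ager on day 7 with DESeq2 (-0.00048), and under the replicate block Ager on day 35 (-0.04) and Rtkn2 on day 42 (0.0047). Of 188 alternative counts and relations, 170 stayed within 1.5 times or on their side. With a log2FC of at least 0.5 required in addition, lower members numbered 3 on day 7, 1 on day 28 and 1 on day 35, and higher members 0 on days 28 and 42, since small changes are dropped, and 0 members were lower on day 42 than on day 14. The share of all genes passing this fold rule was not computed. In fits of only the groups compared, higher members numbered 0 on day 28 and 3 on day 42, and lower members 5 on day 35 and 3 on day 42. Over all genes, these fits called 3425 of 14975 higher on day 28 and 2501 of 15019 lower on day 35. On day 42 they called 2870 lower and 3127 higher of 15066. Without a filter on low counts, 0 members were higher on day 42. Pdpn was not called lower on day 42 than on day 14 (0 members) under library size scaling, upper quartile scaling, no filter or DESeq2. From day 7 to day 14, 2 members were called under library size scaling and 1 under upper quartile scaling. The cause was not tested. Over all 16221 genes, library size scaling called 1631 lower and 1202 higher at this step. Upper quartile scaling called 1543 lower and 1302 higher. With the replicate number as a block, 1 member was called from day 7 to day 14, and 60 of 63 log2FC kept direction and side. From day 7 to day 14 the block called 1533 lower and 1820 higher of all 16221 genes. Same-numbered mice of 2 groups had a mean correlation of deviations of 0.00584, from -0.538 to 0.569 and above 0.1 in 63 of 204 pairs. This mean cannot decide whether the numbers pair the mice, since single pairs deviated in both directions. Library names ran in order of replicate number. An effect of library order, also on the relations within groups, was not tested. Ratios to Ager and relations changed no count by over 1.5 times. Members near the threshold (Rtkn2 on day 28, Emp2, and Hopx on day 7) are limited by the spread between mice.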
